A study of Mus musculus with 2 samples.

Results

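The phospholipase, eicosanoid and phosphoinositide enzyme genes were compared between chromogranin A reporter cells and the other epithelial cells of mouse small-intestinal organoids. Members were taken by symbol from the gene tables: phospholipases A2, C and D, diacylglycerol kinases, prostaglandin and leukotriene enzymes, lipoxygenases, phosphoinositide kinases and phosphatases, sphingosine kinases and protein kinases C. The rule found 119 of the 23532 symbols with an estimate in both libraries, and 81 of the 119 reached 1 FPKM (fragments per kilobase of transcript per 1000000 fragments) in the higher library. Because the choice goes by name, it also takes in non-enzymes such as *Alox5ap*, *Sphkap*, *Pik3ap1* and *Pik3ip1*, the chaperone gene *Ptges3*, and the antisense transcripts *Dgkeos* and *Pla2g10os*.

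The organoids were gut epithelium grown in Matrigel from crypts of ChgA-GFP reporter mice, in medium with epidermal growth factor, noggin and R-spondin. Dissociated cells were sorted by green fluorescence into a GFP+ fraction, about 1% of the cells, and the GFP- remainder of the same strain and culture. Each fraction gave 1 polyA RNA library made with a low-input amplification kit, so no difference has a replicate check, and none carries a p-value. A GFP+ fraction selected on this reporter holds enteroendocrine cells in general, of which the serotonin-producing enterochromaffin cells are one kind, and in such bulk samples fewer cells of a type and less RNA per cell cannot be told apart.

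Of 7 enterochromaffin marker genes, the 5 with an estimate in both libraries were at least 4-fold higher in GFP+, with a summed level of 4733 FPKM in GFP+ cells, against 172 in GFP- cells, while *Chga* and *Chgb* had no estimate in GFP+. Paneth markers were lower, 7 of 7, with a summed level of 1040 FPKM in GFP+ cells, against 17405 in GFP- cells. Of 8 estimated tuft cell markers 6 reached 1 FPKM, and the 8 summed to 5.69 FPKM in GFP+ cells, against 24.8 in GFP- cells, with *Dclk1* the other way at 2.58 FPKM in GFP+ cells, against 1.31 in GFP- cells. Markers of the remaining epithelium had lower sums in GFP+. Goblet markers summed to 1354 FPKM in GFP+ cells, against 3165 in GFP- cells, and enterocyte markers to 1494 FPKM in GFP+ and 3397 in GFP-. Stem markers summed to 342 FPKM in GFP+ and 1366 in GFP-, and cycling markers to 91.1 FPKM in GFP+ and 415 in GFP-. Of those reaching 1 FPKM, 2 of 6 goblet and 3 of 7 enterocyte markers were higher in GFP+, among them *Sis* (183 FPKM, against 85.5 in GFP-). The same held for 1 of 6 cycling and 0 of 4 stem markers. The pan-leukocyte gene *Ptprc* was at 0.0224 FPKM in both libraries, *Cd79a* was listed at 0 in both, and of the 7 immune markers *Lyz2* was the most abundant in GFP+, at 6.61 FPKM against 0.858 FPKM in GFP-. The log2 difference used here is the log2 of (FPKM + 1) of the GFP+ library over (FPKM + 1) of the GFP- library, and genes were set apart by a size rule of at least 2 on that scale, that is 4-fold. On this scale the ratios of weakly expressed genes come out smaller than they are.

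Phospholipases cut membrane phospholipids at different bonds. Phospholipase A2 frees a fatty acid such as arachidonic acid, which cyclooxygenases turn into prostaglandins and lipoxygenases into leukotrienes and related oxylipins. Phospholipase C splits phosphatidylinositol bisphosphate into inositol trisphosphate, which opens calcium stores, and diacylglycerol, which activates protein kinase C and is removed by diacylglycerol kinases. In the gut, Paneth cells are known for a secreted phospholipase A2 with antibacterial activity, tuft cells for leukotriene and prostaglandin synthesis, and hormone-secreting cells for calcium signals downstream of phospholipase C.

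Among these 81 members, 4 were higher in GFP+ by the 4-fold rule (4.94%, beside 7.09% of all 11868 genes tested) and 3 were at least 4-fold lower (3.70%, beside 4.59%). These shares are near those of all genes. All 7 belong to the phospholipase A2 or eicosanoid groups. *Pla2g7*, *Pla2g2f*, *Pla2g2d* and *Alox15* were higher, and *Pla2g2a*, *Pla2g5* and *Ptges2* were lower. None of the other 74 members of at least 1 FPKM passed the rule as deposited. With the median ratio of well-expressed genes set to 0 the split was 11 higher and 1 lower of 84 members, beside 10.8% and 1.51% of all genes. With both libraries rescaled to one total it was 19 higher and 1 lower of 90, beside 13.4% and 1.20% of all genes.

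**Figure D1:**
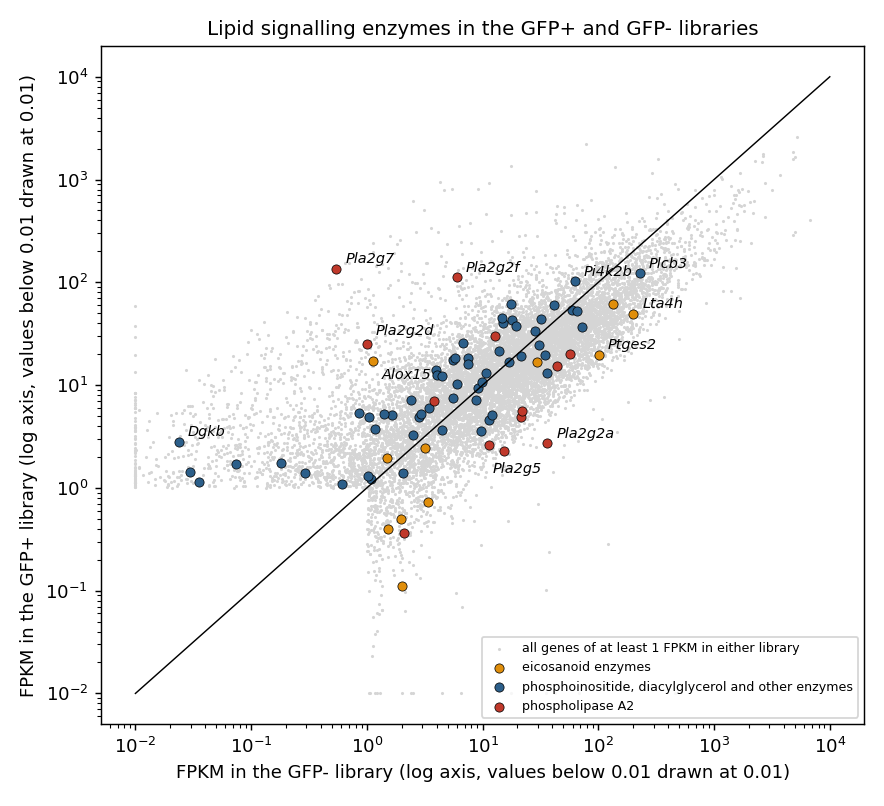
FPKM in the GFP+ library (vertical, log axis) against FPKM in the GFP- library (horizontal, log axis) for the 81 members of at least 1 FPKM, coloured by group, over all 11868 genes tested in grey, with a line of equal values. *Pla2g7*, *Pla2g2f*, *Pla2g2d* and *Alox15* lie far above the line, and *Pla2g2a*, *Pla2g5*, *Ptges2* and *Lta4h* below it.

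The median log2 difference of the 81 members was 0.38, beside -0.12 for all genes tested, and 49 members were above 0 (46.2% of all genes were). Both other scalings moved the median of all genes, to 0.35 with the median ratio set to 0 and to 0.50 with one total, so the members are also counted relative to that median: 51 of 81 lay above it as deposited, 54 of 84 and 56 of 90 under these scalings. Of the 81, 10 were under 1 FPKM in GFP- and 5 under 1 FPKM in GFP+, and the sign of those 15 follows from the filter. Lower confidence bounds were 0 for all 119 members in both libraries, so the bounds of the libraries overlap for every member, and the upper bound was a median of 2.34 times the FPKM in GFP+ and 2.36 times in GFP- among members of at least 1 FPKM.

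**Figure D2:**
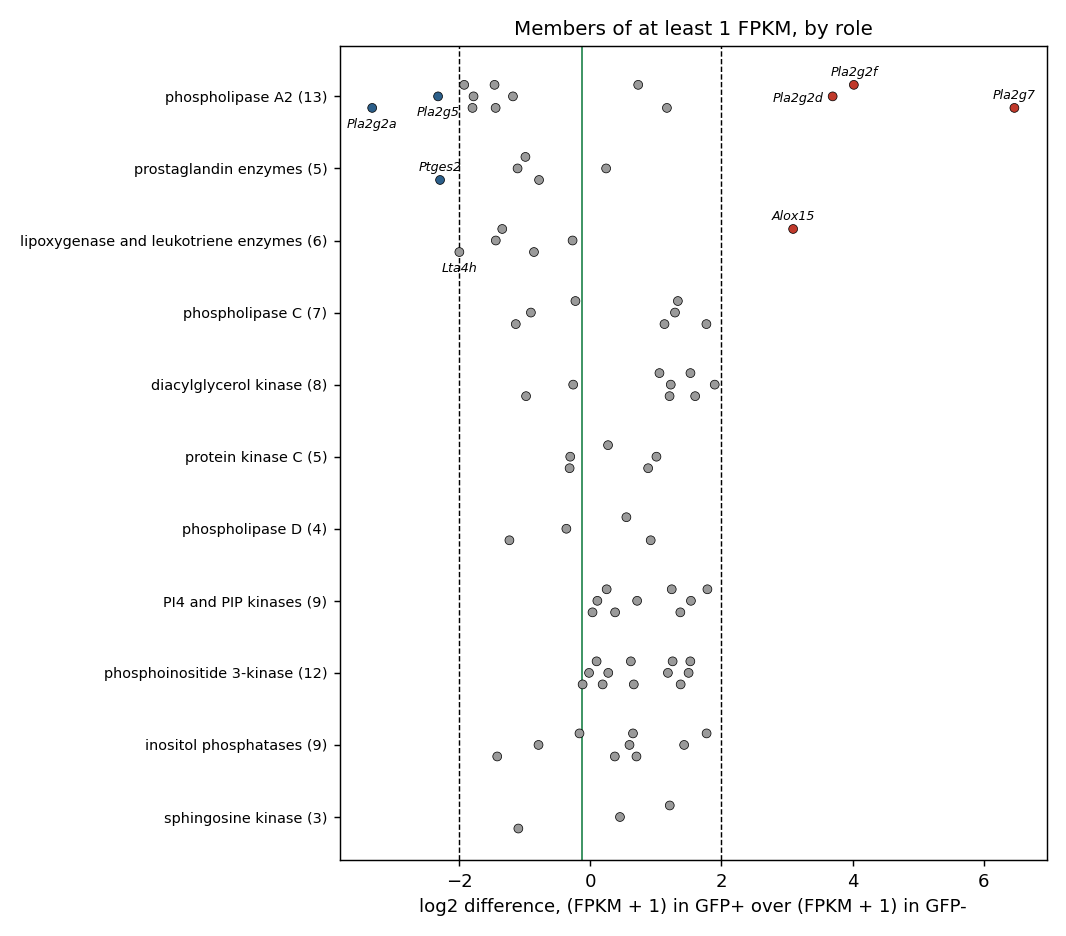
Log2 difference of each member of at least 1 FPKM, in rows by role with the number of members in parentheses; dashed lines mark the size rule of 2 in each direction, the green line the median of all genes tested (-0.12), and red and blue points the members past the rule. The phospholipase A2 row is the most spread, from -3.32 to 6.46, and each row without an eicosanoid or phospholipase A2 gene stays inside the dashed lines.

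Phospholipases A2 split into 3 genes far higher in GFP+ and a larger number with differences below 0. Of 22 symbols 13 reached 1 FPKM, and 5 lay above 0 as deposited (6 of 14 and 7 of 16 under the other scalings). As deposited 3 were at least 4-fold higher (23.1%, beside 7.09% of all genes) and 2 at least 4-fold lower (15.4%, beside 4.59%). *Pla2g7* and *Pla2g2d* (0.999965 FPKM) were under 1 FPKM in GFP-, and *Pla2g10* in GFP+, so the sign of each follows from the filter. *Pla2g7*, which encodes the secreted platelet-activating factor acetylhydrolase, was at 135 FPKM in GFP+ cells, against 0.544 in GFP- cells, with upper bounds of 292 and 1.53 FPKM. Its log2 difference of 6.46 had rank 12 from the highest among all 11868 genes, and the ratio of the FPKM themselves was 249. The gene lies on chromosome 17, listed locus 43568451 to 43612201 (mm10), on the plus strand. Macrophages are a known source of this enzyme and of lipoxygenases, and the 7 immune markers summed to 9.80 FPKM in GFP+ cells, against 2.54 in GFP- cells, of which *Lyz2* and *Cd68* made up most in GFP+. *Cd68* was at 2.71 FPKM in GFP+ cells, against 0.595 in GFP- cells, and the myeloid marker *Itgam* was the other way at 0.270 FPKM in GFP+ cells, against 1.03 in GFP- cells. Their part in the *Pla2g7* and *Alox15* differences was not tested.

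The secreted phospholipase A2 genes of chromosome 4 went in opposite directions side by side. In the order along the chromosome, *Pla2g2c*, *Pla2g2f*, *Pla2g2d*, *Pla2g2a*, *Pla2g5* and *Pla2g2e* lie between 138724792 and 138882817 by the annotation (mm10). *Pla2g2c* is listed with a locus merged with its neighbour *Ubxn10*. *Pla2g2f* (138750533 to 138757598, minus strand) was at 112 FPKM in GFP+ cells, against 5.999 in GFP- cells, a log2 difference of 4.02. Its neighbour *Pla2g2d* (138775735 to 138782143, plus strand) was at 24.9 FPKM in GFP+ cells, against 1.00 in GFP- cells, a difference of 3.69. *Pla2g2a*, the gene of the Paneth cell enzyme, was at 2.72 FPKM in GFP+ cells, against 36.2 in GFP- cells, a difference of -3.32. *Pla2g5*, another secreted phospholipase A2, was at 2.26 FPKM in GFP+ cells, against 15.3 in GFP- cells, a difference of -2.32 that missed the rule under both other scalings (-1.95 under each). The outer genes were low, *Pla2g2c* at 0.754 FPKM in GFP+ cells, against 0.0466 in GFP- cells and *Pla2g2e* at 0.135 FPKM in both. The annotation (GENCODE M21) types *Pla2g2a* as a polymorphic pseudogene, a gene that is intact in some mouse strains and disrupted in the reference strain, and the organoids' background strain is not given in the sources used here.

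**Figure D3:**
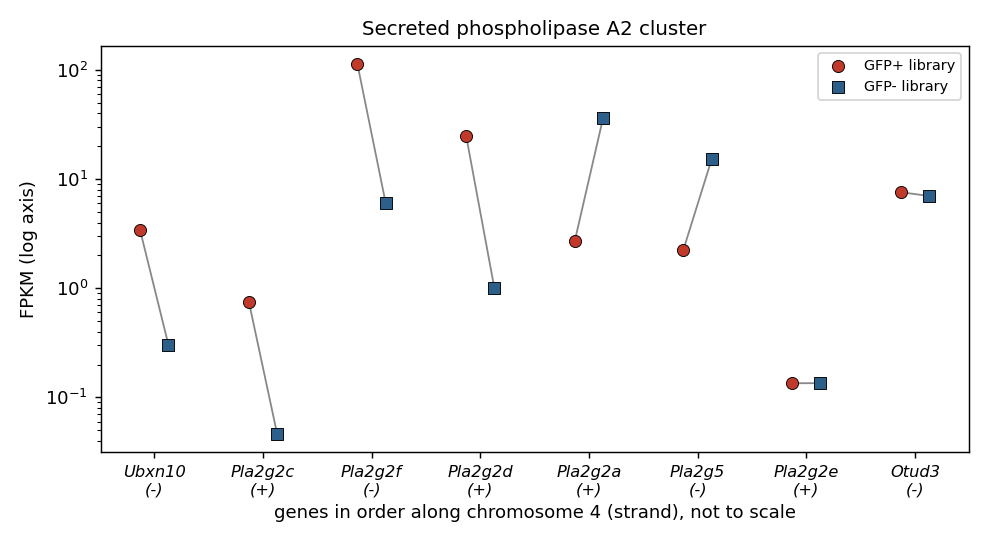
FPKM (log axis) of the 6 secreted phospholipase A2 genes and the flanking genes *Ubxn10* and *Otud3*, in their order along chromosome 4, with the strand in parentheses; red circles are the GFP+ library and blue squares the GFP- library. *Pla2g2f* and *Pla2g2d* are higher in GFP+, the adjoining *Pla2g2a* and *Pla2g5* higher in GFP-, and *Pla2g2e* and *Otud3* nearly level.

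*Pla2g2a* and *Pla2g5* are listed with one merged locus (138799247 to 138863469), but the annotation gives them no shared exon bases, and no stretch of 31 bases of either transcript recurs in transcripts of another gene. The same held for *Pla2g2f*. In *Pla2g2d* 3.95% of such stretches recur in 1485 other genes. In *Pla2g7* 8.2% recur in 1 gene, *1700071M16Rik*, which overlaps it on the opposite strand and was at 0.628 FPKM in GFP+ cells, against 0.0214 in GFP- cells. Reads from *Pla2g7* and that partner cannot be told apart there. The 13.3-fold lower *Pla2g2a* stood beside a 16.7-fold lower sum of the 7 Paneth markers, and the part of Paneth cells in that difference was not tested.

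The 250 bases before the RefSeq starts of 4 of these genes show what sequence stands at starts whose transcripts differ in opposite directions. They are from RefSeq (GRCm38.p6, the assembly of mm10) and run 5′ to 3′ on the gene's strand. Capitals mark matches on either strand to 6 short motifs, chosen after the values were seen: the E-box CAGATG that basic helix-loop-helix factors bind, the other E-box CAGCTG, the homeodomain core TAATTA, the GATA-type motif AGATAA, the TATA-type motif TATAAA and the CCAAT box. *Pla2g7* stands first, at chr17:43568201-43568450 on the plus strand. GENCODE M21 starts this gene at 43568098, so by that annotation the whole window lies inside it. *Pla2g2f* is at chr4:138757599-138757848 on the minus strand and *Pla2g2d* at chr4:138775485-138775734 on the plus strand. *Pla2g5* has windows at an outer start, chr4:138863470-138863719, and an inner start, chr4:138819258-138819507, both on the minus strand. GENCODE M21 starts *Pla2g5* at 138863482, inside the outer window. *Pla2g2a* and *Alox15* are named only.
Pla2g7: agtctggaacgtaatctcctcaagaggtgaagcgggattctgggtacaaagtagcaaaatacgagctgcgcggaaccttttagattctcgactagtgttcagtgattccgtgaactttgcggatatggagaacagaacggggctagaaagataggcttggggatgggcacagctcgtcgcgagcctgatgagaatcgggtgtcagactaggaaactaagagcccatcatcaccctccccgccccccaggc
Pla2g2f: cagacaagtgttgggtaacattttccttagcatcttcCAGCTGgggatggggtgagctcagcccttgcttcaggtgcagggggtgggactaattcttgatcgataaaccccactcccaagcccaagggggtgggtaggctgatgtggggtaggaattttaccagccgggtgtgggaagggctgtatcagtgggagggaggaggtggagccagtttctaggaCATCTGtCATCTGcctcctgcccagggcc
Pla2g2d: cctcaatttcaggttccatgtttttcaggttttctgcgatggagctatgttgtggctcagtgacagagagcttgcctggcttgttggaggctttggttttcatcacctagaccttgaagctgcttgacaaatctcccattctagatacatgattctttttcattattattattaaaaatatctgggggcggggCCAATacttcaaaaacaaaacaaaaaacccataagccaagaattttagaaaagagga
Pla2g5 outer start: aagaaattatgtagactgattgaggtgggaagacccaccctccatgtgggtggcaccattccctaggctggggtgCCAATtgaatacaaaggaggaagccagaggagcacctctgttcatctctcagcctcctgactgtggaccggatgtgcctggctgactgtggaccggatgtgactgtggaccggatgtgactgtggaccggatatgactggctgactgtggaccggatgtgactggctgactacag
Pla2g5 inner start: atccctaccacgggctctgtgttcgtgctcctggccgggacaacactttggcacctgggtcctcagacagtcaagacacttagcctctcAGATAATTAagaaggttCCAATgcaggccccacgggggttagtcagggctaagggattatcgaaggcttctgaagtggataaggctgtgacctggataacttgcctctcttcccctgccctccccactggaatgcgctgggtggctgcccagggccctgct

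The *Pla2g2f* window holds the motif CAGCTG once, and the motif CAGATG as its reverse complement at 2 places 29 and 22 bases before the RefSeq start. GENCODE M21 starts *Pla2g2f* at 138757626, inside this window. By that annotation the site at 22 bases lies within the gene and the site at 29 bases spans its start. Among 32851 windows of the same length in the table, 14.4% hold the motif CAGATG, 13% hold the motif CAGCTG and 1.32% hold CAGATG at 2 or more places. The *Pla2g2d* window and the outer *Pla2g5* window each hold CCAAT once, as do 33.8% of windows at least once. In the inner *Pla2g5* window the motif AGATAA overlaps the homeodomain core by 3 bases and CCAAT follows once. The GATA-type motif is in 9.99% of windows and the homeodomain core in 4.84%. TATAAA, in 12.4% of windows, has no match in these 5. The *Pla2g7* window, which lies inside the gene by GENCODE M21, has no match to any of the 6. These matches describe letters only.

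The remaining phospholipases A2 mostly had differences below 0, none past the rule as deposited. *Pla2g4a*, the cytosolic enzyme that releases arachidonic acid on a calcium signal, was at 4.94 FPKM in GFP+ cells, against 21.5 in GFP- cells. Its log2 difference of -1.92 missed the rule. *Pla2g12a* and *Pla2g12b*, secreted and atypical, were at 20.2 and 15.3 FPKM in GFP+ cells, against 56.5 and 43.8 in GFP- cells, with nearly equal differences of -1.44 and -1.46. *Pla2g16*, an adipose and membrane-acting phospholipase, was at 2.63 FPKM in GFP+ cells, against 11.4 in GFP- cells. The joined row of *Jmjd7* and *Pla2g4b*, left unseparated by the deposited counting, was at 5.65 FPKM in GFP+ cells, against 22.0 in GFP- cells. The calcium-independent *Pla2g6* was the other way, at 30.2 FPKM in GFP+ cells, against 12.9 in GFP- cells, as was the lysosomal *Pla2g15* at 7.02 FPKM in GFP+ cells, against 3.83 in GFP- cells. The secreted *Pla2g10* was at 0.366 FPKM in GFP+ cells, against 2.09 in GFP- cells. The 9 symbols under 1 FPKM in both libraries were *Pla2g1b*, *Pla2g2c*, *Pla2g2e*, *Pla2g3*, *Pla2g4c*, *Pla2g4d*, *Pla2g4e*, *Pla2g4f* and *Pla2g10os*.

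Prostaglandin enzymes were at low levels or mostly had differences below 0. Of 9 symbols 5 reached 1 FPKM. As deposited 1 of the 5 was at least 4-fold lower, beside 4.59% of all genes, and none 4-fold higher, beside 7.09%. Both cyclooxygenase genes, which commit arachidonic acid to prostaglandins, were under 1 FPKM: *Ptgs1* at 0.145 FPKM in GFP+ cells, against 0.865 in GFP- cells, and *Ptgs2* at 0.178 FPKM in GFP+ cells, against 0.00405 in GFP- cells. *Ptges2*, a membrane-associated prostaglandin E synthase, was at 19.8 FPKM in GFP+ cells, against 101 in GFP- cells. Its log2 difference was -2.29, and -1.81 and -1.70 under the other scalings, where it no longer passed the rule. *Ptges3*, which encodes the Hsp90 co-chaperone p23 and is also named a prostaglandin E synthase, was at 62.0 FPKM in GFP+ cells, against 135 in GFP- cells. *Hpgd*, which inactivates prostaglandins, was at 16.9 FPKM in GFP+ cells, against 29.8 in GFP- cells. The inducible synthase *Ptges* was nearly level, at 0.562 FPKM in GFP+ cells, against 0.577 in GFP- cells, and the prostaglandin D synthases *Hpgds* and *Ptgds* were at 0.751 and 0.497 FPKM in GFP+ cells, against 0.430 and 1.97 in GFP- cells.

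Among lipoxygenases *Alox15* stood apart from the leukotriene branch. This lipoxygenase, which oxygenates arachidonic and linoleic acid (chromosome 11, 70344147 to 70352031), was at 17.2 FPKM in GFP+ cells, against 1.13 in GFP- cells, a log2 difference of 3.09 (1.85 with a pseudocount of 5, under the rule). *Lta4h*, whose product makes leukotriene B4, was at 49.7 FPKM in GFP+ cells, against 201 in GFP- cells. Its difference of -1.99 fell just short of the rule. *Ltc4s*, the leukotriene C4 synthase, was at 0.731 FPKM in GFP+ cells, against 3.38 in GFP- cells. *Alox5*, which starts leukotriene synthesis, was at 0.110 FPKM in GFP+ cells, against 2.01 in GFP- cells. Its partner protein gene *Alox5ap* was close to level, at 2.46 FPKM in GFP+ cells, against 3.17 in GFP- cells, a difference of -0.27 that turned above 0 under both other scalings. *Alox12b* was at 0.400 FPKM in GFP+ cells, against 1.53 in GFP- cells, and the other 4 symbols, *Alox12*, *Alox12e*, *Alox8* and *Aloxe3*, stayed under 1 FPKM. The lower *Alox5* and *Ltc4s* values stood beside the tuft markers already given, lower in sum but not in *Dclk1*, and the part of tuft cells was not tested.

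Genes around the eicosanoid enzymes gave one large difference. *Slco2a1*, the prostaglandin uptake transporter, was at 127 FPKM in GFP+ cells, against 1.27 in GFP- cells, a log2 difference of 5.81. Of 8 other prostanoid genes of at least 1 FPKM it alone was 4-fold higher as deposited, beside 7.09% of all genes. *Cbr1*, a carbonyl reductase that acts on prostaglandins, was lower at 76.6 FPKM in GFP+ cells, against 354 in GFP- cells. *Cbr1* passed the rule as deposited but not under the other scalings. *Abcc4*, an exporter of prostaglandins and other anions, was at 10.6 FPKM in GFP+ cells, against 2.62 in GFP- cells. All 9 other leukotriene and epoxide enzymes of at least 1 FPKM lay below 0 as deposited. Past the rule were 2 as deposited, beside 4.59% of all genes at least 4-fold lower, and 0 under either other scaling. *Ggt1* among the 9 turned above 0 under both of those. *Mgst3* was at 191 FPKM in GFP+ cells, against 780 in GFP- cells, and *Ephx1*, an epoxide hydrolase, at 41.4 FPKM in GFP+ cells, against 188 in GFP- cells.

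**Figure D4:**
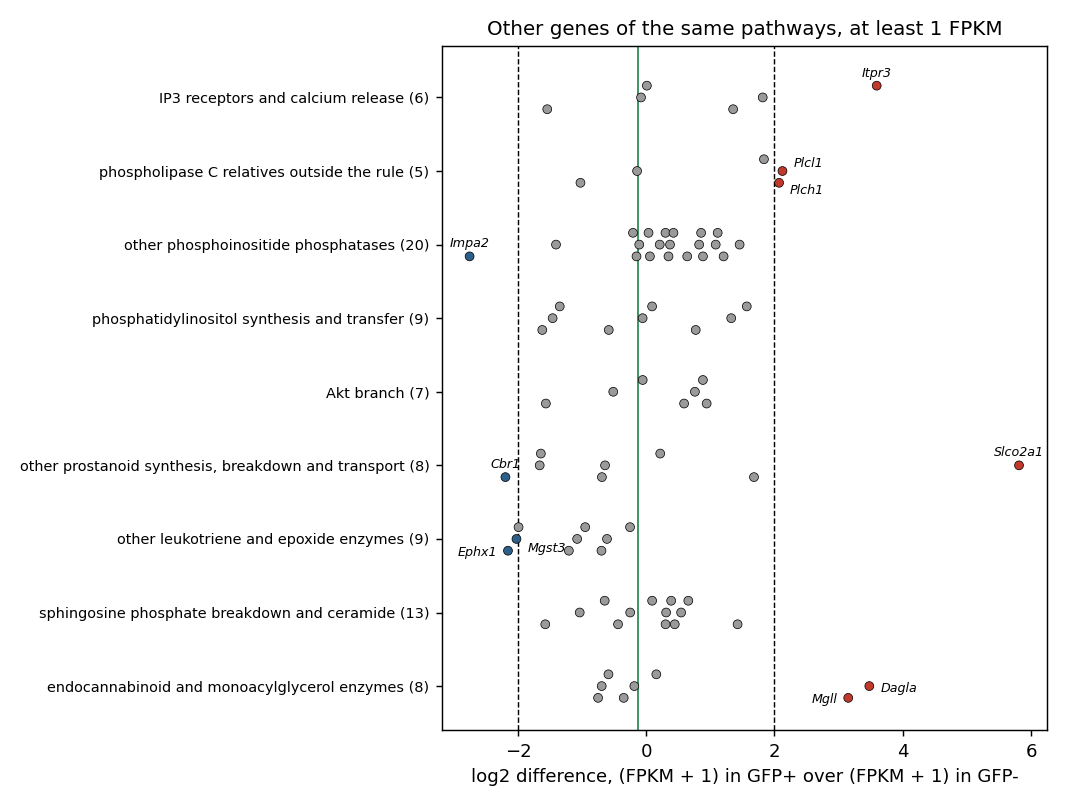
Log2 difference of genes of the same pathways that the naming rule leaves out, at least 1 FPKM, in rows by list with the number of genes in parentheses; dashed lines mark the size rule, the green line the median of all genes tested (-0.12), and red and blue points the genes past the rule. *Slco2a1* is the farthest point at 5.81, followed by *Itpr3* at 3.59 and *Dagla* at 3.48, with *Impa2* lowest at -2.75.

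Among 7 phospholipases C of at least 1 FPKM none passed the rule as deposited, beside 7.09% of all genes higher and 4.59% lower. *Plcb4* passed it with one total, at 2.22. The highest level belonged to 1 isoform in both libraries. *Plcb3*, an isoform driven by Gq-coupled receptors, was at 122 FPKM in GFP+ cells, against 229 in GFP- cells, a log2 difference of -0.90. Its relative *Plcb1* was at 0.468 FPKM in GFP+ cells, against 0.266 in GFP- cells, *Plcb4* at 1.71 FPKM in GFP+ cells, against 0.0734 in GFP- cells, and *Plcb2*, the isoform of taste and tuft cells, at 0.0457 FPKM in GFP+ cells, against 0.119 in GFP- cells. *Plce1*, which Ras-family proteins activate, was at 5.35 FPKM in GFP+ cells, against 0.862 in GFP- cells, a difference of 1.77 that reached 2.20 and 2.57 under the other scalings, past the rule. *Plcg1*, activated by receptor tyrosine kinases, was at 12.3 FPKM in GFP+ cells, against 4.44 in GFP- cells. *Plcg2* was at 3.67 FPKM in GFP+ cells, against 4.45 in GFP- cells, a difference below 0 as deposited and above 0 under both other scalings. The delta isoforms went apart, *Plcd1* at 4.62 FPKM in GFP+ cells, against 11.3 in GFP- cells, *Plcd3* at 3.77 FPKM in GFP+ cells, against 1.18 in GFP- cells. *Plcz1*, the sperm isoform, was listed at 0 in both libraries, and *Plcd4* was at 0.00636 FPKM in GFP+ and listed at 0 in GFP-.

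Of the relatives outside the naming rule, *Plch1* was at 17.0 FPKM in GFP+ cells, against 3.29 in GFP- cells, past the rule at 2.07 (1.41 with a pseudocount of 5). *Plcl1*, which has no phospholipase activity, was at 3.60 FPKM in GFP+ cells, against 0.0550 in GFP- cells. Downstream, the inositol trisphosphate receptor *Itpr3*, in a row joined with *Mir7677*, was at 122 FPKM in GFP+ cells, against 9.23 in GFP- cells, a log2 difference of 3.59. The receptors *Itpr1* and *Itpr2* were at 5.48 and 2.25 FPKM in GFP+ cells, against 0.840 and 0.270 in GFP- cells. *Itpka*, a kinase that phosphorylates inositol trisphosphate, did not pass the rule, at 7.73 FPKM in GFP+ cells, against 24.4 in GFP- cells.

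Diacylglycerol kinases had 6 of 8 members above the median of all genes, under each of the 3 scalings. *Dgkb* and *Dgkh* were under 1 FPKM in GFP-, so as deposited their side of the median follows from the filter. As deposited 0 of the 8 passed the rule, beside 7.09% of all genes higher and 4.59% lower. With the median ratio set to 0 *Dgkb* and *Dgkq* passed it, beside 10.8% of all genes higher. With one total *Dgke* did too, beside 13.4%. *Dgkd* was at 42.7 FPKM in GFP+ cells, against 17.9 in GFP- cells, and *Dgkz*, the most abundant in GFP-, was the reverse at 36.4 FPKM in GFP+ cells, against 72.6 in GFP- cells. *Dgkq* was at 14.0 FPKM in GFP+ cells, against 3.96 in GFP- cells. Its exons share 2090 annotated bases with *Tmem175* on the opposite strand, which was at 10.4 FPKM in GFP+ cells, against 16.1 in GFP- cells. *Dgkb*, known from brain, had the highest ratio of the group, 2.82 FPKM in GFP+ over 0.0238 FPKM in GFP-, with a log2 difference of 1.90 that passed the rule under both other scalings and at 4.56 with a pseudocount of 0.1. *Dgke*, *Dgkg* and *Dgkh* were at 4.90, 5.17 and 1.15 FPKM in GFP+ cells, against 1.05, 1.63 and 0.0357 in GFP- cells. *Dgka* was at 7.11 FPKM in GFP+ cells, against 8.71 in GFP- cells, a difference below 0 that turned above 0 under both other scalings.

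Protein kinases C differed little as deposited, from -0.31 to 1.01 on the log2 scale over the 5 members of at least 1 FPKM. None of the 5 passed the rule under any scaling, beside 7.09% of all genes higher and 4.59% lower as deposited. *Prkcd*, an isoform activated by diacylglycerol without calcium, was at 52.3 FPKM in GFP+ cells, against 65.3 in GFP- cells, and the atypical *Prkci* at 24.7 FPKM in GFP+ cells, against 30.7 in GFP- cells. Both differences, -0.31 and -0.30, turned above 0 under the other scalings. The conventional isoform *Prkca* was at 16.01 FPKM in GFP+ cells, against 7.44 in GFP- cells, a difference of 1.01. *Prkcz* was at 13.1 FPKM in GFP+ cells, against 10.6 in GFP- cells, and *Prkce* at 1.38 FPKM in GFP+ cells, against 0.291 in GFP- cells. *Prkcb* and *Prkch* were under 1 FPKM, and *Prkcq*, the T-cell isoform, was listed at 0 in both libraries.

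Diacylglycerol can also be cut to the endocannabinoid arachidonoylglycerol. As deposited, 2 of the 8 genes of that list were higher past the rule, beside 7.09% of all genes, while 5 had differences below 0. Above 0 were 3 of the 8 as deposited, 5 with the median ratio set to 0 and 6 with one total. The 2 past the rule, *Dagla* and *Mgll*, were under 1 FPKM in GFP-, so their sign follows from the filter. *Dagla*, which makes arachidonoylglycerol, was at 21.1 FPKM in GFP+ cells, against 0.984 in GFP- cells. *Mgll*, which breaks arachidonoylglycerol down, was at 14.0 FPKM in GFP+ cells, against 0.693 in GFP- cells. Their log2 differences were 3.48 and 3.15, and *Mgll* missed the rule at 1.74 with a pseudocount of 5. The isozyme *Daglb* was at 9.86 FPKM in GFP+ cells, against 12.8 in GFP- cells. The other hydrolases of the same product, *Abhd6* and *Abhd12*, were at 9.45 and 24.5 FPKM in GFP+ cells, against 16.6 and 37.3 in GFP- cells. The other 6 of the 8 genes of that list did not pass the rule, with *Faah*, which degrades anandamide, at 48.9 FPKM in GFP+ cells, against 43.8 in GFP- cells.

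Phospholipases D, which produce phosphatidic acid, differed by isoform without passing the rule. As deposited this is 0 of 4, beside 7.09% of all genes higher and 4.59% lower. *Pld1* was at 37.8 FPKM in GFP+ cells, against 19.5 in GFP- cells, and *Pld2* at 3.55 FPKM in GFP+ cells, against 9.68 in GFP- cells. *Pld3*, a lysosomal exonuclease despite its name, was at 60.7 FPKM in GFP+ cells, against 41.0 in GFP- cells. *Pld6*, a mitochondrial protein, was at 1.38 FPKM in GFP+ cells, against 2.06 in GFP- cells, a difference below 0 except with one total. *Pld4* and *Pld5* stayed under 1 FPKM.

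Phosphoinositide kinases upstream of phospholipase C were at or above equality in all 9 members of at least 1 FPKM, under all 3 scalings. As deposited none passed the rule, beside 7.09% of all genes higher and 4.59% lower. With the median ratio set to 0, 2 of 9 passed it (*Pi4ka* and *Pip4k2c*), beside 10.8% of all genes higher. With one total 4 of 9 did, *Pip4k2a* and *Pip5k1c* being added, beside 13.4%. *Pi4k2b*, a phosphatidylinositol kinase of endosomal membranes, had the highest level at 103 FPKM in GFP+ cells, against 62.3 in GFP- cells. *Pi4ka*, which supplies the plasma membrane pool, was at 25.7 FPKM in GFP+ cells, against 6.75 in GFP- cells, a log2 difference of 1.79 that passed the rule under both other scalings. *Pip5k1c*, which makes phosphatidylinositol bisphosphate at synapses and adhesions, was at 40.4 FPKM in GFP+ cells, against 15.0 in GFP- cells, and *Pip4k2c* at 44.6 FPKM in GFP+ cells, against 14.7 in GFP- cells. *Pip5k1b* was at 33.7 FPKM in GFP+ cells, against 28.2 in GFP- cells. The smallest differences were those of *Pi4kb* (0.04) and *Pi4k2a* (0.11). *Pip4k2a* was at 1.44 FPKM in GFP+ cells, against 0.0294 in GFP- cells, so that it passed the filter through GFP+ alone.

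All 12 phosphoinositide 3-kinase group members of at least 1 FPKM lay above the median of all genes under each of the 3 scalings. The 12 include the non-enzymes *Pik3ap1* (1.22 FPKM in GFP+, 1.08 in GFP-) and *Pik3ip1* (4.84 and 2.80). *Pik3ip1* is listed with a merged locus and upper bounds of 46.2 and 41.8 FPKM. As deposited 0 passed the rule, beside 7.09% of all genes higher and 4.59% lower. With one total *Pik3r1*, *Pik3c2a* and *Pik3r5* passed it, beside 13.4% of all genes higher. The regulatory subunit *Pik3r1* was at 18.4 FPKM in GFP+ cells, against 5.74 in GFP- cells, a log2 difference of 1.53 that passed the rule under both other scalings. Another regulatory subunit, *Pik3r2*, was the most abundant, at 54.3 FPKM in GFP+ cells, against 58.8 in GFP- cells, and its difference of -0.11 turned above 0 under both other scalings. The related *Pik3r3* was at 7.18 FPKM in GFP+ cells, against 2.42 in GFP- cells. The catalytic genes *Pik3ca* and *Pik3cb* were at 1.30 and 5.25 FPKM in GFP+ cells, against 1.02 and 2.94 in GFP- cells. *Pik3c2a*, a class II kinase of endocytic membranes, was at 17.6 FPKM in GFP+ cells, against 5.58 in GFP- cells. The class III kinase *Pik3c3*, which acts in autophagy, was level at 16.6 FPKM in GFP+ cells, against 16.9 in GFP- cells, while its partner *Pik3r4* was at 18.3 FPKM in GFP+ cells, against 7.47 in GFP- cells. *Pik3r5*, the regulatory subunit of the gamma enzyme, was at 5.27 FPKM in GFP+ cells, against 1.41 in GFP- cells, and the gamma catalytic gene *Pik3cg* at 0.0339 FPKM in GFP+ cells, against 0.247 in GFP- cells. The leukocyte isoform *Pik3cd* was at 0.254 FPKM in GFP+ cells, against 0.0360 in GFP- cells.

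Inositol phosphatases went in both directions. As deposited none of 9 passed the rule, beside 7.09% of all genes higher and 4.59% lower. *Inpp1* passed it with one total, at 2.10. *Inpp5j*, which removes a phosphate from phosphoinositides, was at 62.2 FPKM in GFP+ cells, against 17.5 in GFP- cells, a log2 difference of 1.77 that passed the rule under both other scalings, and its exons share 401 bases with *Pla2g3* on the opposite strand. *Inpp5a*, which degrades inositol trisphosphate, was at 12.99 FPKM in GFP+ cells, against 36.3 in GFP- cells, a difference of -1.42. *Inpp5b*, in a row joined with *Mir698*, was at 19.7 FPKM in GFP+ cells, against 34.7 in GFP- cells. *Inpp1*, of inositol recycling, was at 12.6 FPKM in GFP+ cells, against 4.05 in GFP- cells, and *Inppl1*, the SHIP2 phosphatase, at 21.6 FPKM in GFP+ cells, against 13.9 in GFP- cells. *Inpp5k* was at 19.2 FPKM in GFP+ cells, against 21.6 in GFP- cells, a difference below 0 that turned above 0 under both other scalings. *Inpp5e*, a phosphatase of cilia, was at 10.3 FPKM in GFP+ cells, against 5.96 in GFP- cells. It shares 874 exon bases with *Pmpca* on the opposite strand, which was at 72.9 FPKM in GFP+ cells, against 110 in GFP- cells. *Inpp5d*, the leukocyte SHIP1 gene, was at 0.0946 FPKM in GFP+ cells, against 0.412 in GFP- cells.

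The wider phosphoinositide lists held few genes past the rule. Of 20 other phosphatases 16 lay above the median of all genes. As deposited 0 were at least 4-fold higher and 1 was at least 4-fold lower, beside 7.09% and 4.59% of all genes. *Impa2*, an inositol monophosphatase, was at 7.72 FPKM in GFP+ cells, against 57.9 in GFP- cells. Its isozyme *Impa1* was at 93.8 FPKM in GFP+ cells, against 59.9 in GFP- cells. None of 9 genes of phosphatidylinositol synthesis and transfer, and none of 7 genes of the Akt branch, passed the rule as deposited. These counts stand beside the same 7.09% and 4.59% of all genes. *Akt1* was at 21.2 FPKM in GFP+ cells, against 64.7 in GFP- cells. *Akt2* was at 25.8 FPKM in GFP+ cells, against 14.8 in GFP- cells.

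The sphingosine kinases, which make sphingosine phosphate, were opposed in direction within the rule. *Sphk2* was at 44.4 FPKM in GFP+ cells, against 32.1 in GFP- cells, and *Sphk1* at 5.15 FPKM in GFP+ cells, against 12.1 in GFP- cells. The anchoring protein gene *Sphkap* was at 1.74 FPKM in GFP+ cells, against 0.181 in GFP- cells, and passed the rule with one total, at 2.03. *Sphk2* shares 373 exon bases with *Rpl18* and 539 with *Dbp*, both on the opposite strand. None of 13 genes of sphingosine phosphate breakdown and ceramide passed the rule as deposited, beside 7.09% of all genes higher and 4.59% lower.

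**Figure D5:**
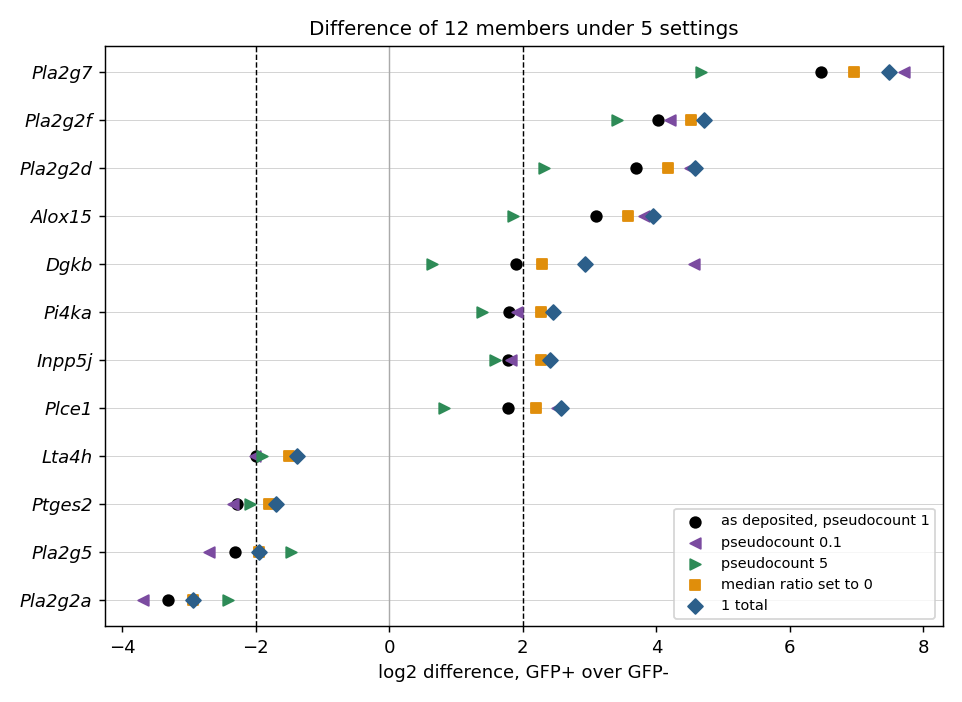
Log2 difference (GFP+ over GFP-) of 12 members under 5 settings, with the size rule of 2 in each direction dashed and 0 in grey. *Pla2g7*, *Pla2g2f*, *Pla2g2d* and *Pla2g2a* stay past the rule at every setting drawn, and *Pla2g5* and *Ptges2* do not under the other scalings.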

How the data were processed

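Per the labels' protocols, polyA RNA of sorted organoid cells was amplified with a SMARTer low-input kit. The deposited FPKM and their confidence bounds were made by the authors with TopHat2 0.7, Cufflinks and Cuffdiff on mm10, per the submitters' processing notes and the file headers. The annotation, the library scaling, strand use and the handling of multiply mapping reads are each not given in the sources used here. FPKM were summed per symbol, and the 5 rows of status HIDATA in GFP+ (listed at 0, none a member) were treated as not estimated. The comparison took symbols reaching 1 FPKM in either library, with a pseudocount of 1. There was 1 library per fraction, so no test was run.

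Alternatives were pseudocounts of 0.1 and 5, no filter or 5 FPKM, scaling by the median ratio of genes reaching 10 FPKM in each library or to one total of 1000000, joined rows left out, and rows of other status left out. The calculation was tested on simulated data. Members, gene lists and the named-gene rule were chosen with earlier results of these data known. Each member of at least 10 FPKM or past the rule is named, with most others, and a few genes are not reported here. FPKM give no counts. A search for whole-fragment steps in low values of 1-transcript genes over 3000 bases placed 59.0% of 83 values (GFP+) and 75.2% of 109 (GFP-) within 0.1 of a step, so no fragment counts are given and the depth is unknown. Loci count from 1. Exons are from GENCODE M21. Python 3.11.15, pandas 2.3.3 and numpy 2.4.6 were used.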

Additional observations from a re-analysis of the deposited data

How the results depend on the processing

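Direction and side of the 4-fold rule were kept in 566 of the 624 recomputed member values (8 alternatives), 35 newly passed the rule, 6 no longer passed it and 17 changed sign. Those 17 are 9 members, 8 under both scalings and *Pld6* under one total alone, none past the rule. The 6 were *Alox15* (1.85) and *Pla2g5* (-1.48) with a pseudocount of 5, and *Pla2g5* (-1.95, -1.95) and *Ptges2* (-1.81, -1.70) under the scalings. The filter changes and the omission of rows only drop genes, so they could not change a member's value. Of the 566, no filter gave 81, the 5 FPKM filter 59, joined rows left out 79 and rows of other status left out 81. Only the pseudocounts and scalings could move a value. With a pseudocount of 0.1, 11 of 81 members were higher and 9 lower, beside 12.8% and 6.82% of all genes. Members higher and lower were 11 and 1 with the median ratio set to 0, and 19 and 1 with one total, against 4 and 3. Their median was 0.22 with a pseudocount of 5, 0.036 without a filter, 0.74 and 0.81 under the scalings. Over all genes, 1524 were higher and 809 lower with a pseudocount of 0.1, and 353 higher and 315 lower with 5. The counts were 1317 and 184 with the median ratio set to 0, and 1717 and 153 with one total. The median of all genes was 0 without a filter, -0.27 from 5 FPKM, 0.35 and 0.50 under the scalings. The cause of these shifts was not tested. No paired analysis was possible because each fraction has 1 library. FPKM give no depth, so counting error is unknown.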

Other observations

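Beyond the members on chromosome 4, the genes on either side of the secreted phospholipase cluster did not share 1 direction. *Ubxn10*, which overlaps *Pla2g2c* by 217 exon bases on the opposite strand, was at 3.38 FPKM in GFP+ cells, against 0.304 in GFP- cells. *Otud3*, a deubiquitinase gene past the other end, was at 7.58 FPKM in GFP+ cells, against 6.997 in GFP- cells. *Rnf186*, a ubiquitin ligase gene of gut epithelium, was at 97.4 FPKM in GFP+ cells, against 379 in GFP- cells, a log2 difference of -1.95, and *Tmco4* was at 6.26 FPKM in GFP+ cells, against 18.5 in GFP- cells. The 6 cluster genes summed to 143 FPKM in GFP+ cells, against 58.6 in GFP- cells.

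Among 7 mesenchymal markers 1 carried nearly all of the sum. *Vim* was at 237 FPKM in GFP+ cells, against 4.90 in GFP- cells, while *Col1a1* and *Col3a1* were at 1.56 and 1.61 FPKM in GFP+ cells, against 0.0106 and 0.00593 in GFP- cells.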
